A study of Mus musculus with 10 samples.

Results

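RNA from mouse cortical neurons that carried a virus for the histone H2BE was compared with RNA from neurons that carried a control virus, in both cases without BDNF. The comparison used 4 of the 10 libraries of the series, H2BE 2 and H2BE 3 against Control 1 and Control 2, chosen by their labels. A further library, Control 3, held no gene with a count above that of Control 1 and 73.7% of its total, and was left out. The same held for BDNF 3, so the series had 8 distinct libraries, and the other 4 of them (BDNF 1 and 2, H2BE+BDNF 2 and 3) helped to estimate the spread between libraries. All groups were wild-type C57BL/6J neurons taken from the cortex of E16.5 embryos, given 0.5 µM AraC, which acts against dividing cells, and infected with a lentivirus. The H2BE group received a virus that expressed H2BE from a constitutively active promoter, and the Control group a control virus that the labels do not describe further. RNA was collected 24 hours after the step at which the other groups received BDNF. The labels do not say whether numbered replicates were separate cultures, so every p-value measures the spread between these libraries, which may be technical. With bulk RNA, fewer cells of a type and less RNA per cell cannot be told apart.

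H2BE is a variant of the core histone H2B that differs from the common H2B proteins at a few residues, and in the mouse it is encoded by the gene H2bc21. Unlike the common H2B genes, which are transcribed during S phase, it can be expressed in cells that no longer divide, and it was first described in olfactory sensory neurons. A variant that enters nucleosomes outside DNA replication can change how tightly DNA is held and how readily genes are transcribed. Neurons express many very long genes, among them those for synaptic scaffolds, adhesion proteins and ion channels, while ribosomal and respiratory chain proteins come from short transcripts.

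H2bc21 (chr3:96221119-96223738, + strand, GRCm38) was at 5.19 and 5.24 counts per 1000000 counts of the scaled library (CPM) in Control 1 and 2 and at 42.9 and 35.7 CPM in H2BE 2 and 3. Both H2BE libraries were far above both Control libraries. The log2 fold change was 2.92 with a standard error (SE) of 0.15, or 7.58-fold, and the adjusted p was 3.96e-08 by edgeR's quasi-likelihood test with Benjamini-Hochberg adjustment over all 13452 tested genes. These values rested on 74, 30, 303 and 180 counts. In order of mean CPM the gene moved from place 10602 in Control to place 5529 in H2BE, so its RNA was still at a middling level under the virus. The table does not separate RNA of the virus from RNA of the resident gene. DESeq2 gave the same direction, with a log2 fold change of 2.93, and no adjusted p for this gene. DESeq2 also gave none for other genes, among them Hivep3, Dyrk1b and H2az2. A statement below that DESeq2 called no gene of a list does not cover such genes. Of the other H2B genes tested, H2bc27 was at 36.3 and 33.6 CPM in Control and 32.0 and 37.1 CPM in H2BE, with overlap between the groups. H2bc4 was at 21.1 and 21.9 CPM in Control and 20.4 and 20.6 CPM in H2BE, and H2bc6 was at 1.89 and 2.62 against 2.69 and 3.97 CPM. None of the 3 passed the test, with an adjusted p of 0.914 for H2bc27, 0.872 for H2bc4 and 0.427 for H2bc6 by edgeR. Copies of H2B genes are similar in sequence, so reads could be shared among them.

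The libraries differed in depth, with 14142545 and 5682480 counts in Control 1 and 2 and 7076365 and 5058074 in H2BE 2 and 3, so that 3 counts stood for 0.212 to 0.593 CPM. Of the 48526 genes in the table, 21822 had no count in any library. H2BE 3 had a count for 18026 genes and the other 3 libraries had one for 20153 to 20639 genes. Correlations of log2 CPM were 0.992 between the Control libraries, 0.989 between the H2BE libraries and 0.986 to 0.990 between the groups. Markers of excitatory neurons summed to 1709 and 1698 CPM in Control 1 and 2 and to 1882 and 1916 CPM in H2BE 2 and 3. Those of interneurons summed to 3586 and 3624 against 3479 and 3545 CPM. Astrocyte markers summed to 746 and 717 against 809 and 796 CPM, and progenitor markers to 218 and 220 against 192 and 190 CPM. Sums for oligodendrocyte lineage cells, endothelial and mural cells, and fibroblasts overlapped between the groups, at 32.8 to 130.3 CPM. Whether cell composition differed was not tested.

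The change in RNA under the H2BE virus was broad and shallow. At an adjusted p under 0.05, 287 genes were called, which is 2.13% of those tested; 179 were higher in H2BE (1.33%) and 108 lower (0.803%). Only H2bc21 and H2az2 differed by more than 2-fold among the called genes, and 11 by more than 1.5-fold. The median log2 fold change was 0.34 among the genes called higher and -0.33 among those called lower. The H2BE and Control libraries did not overlap for any of the 287 genes, beside 49.6% of all tested genes. These counts depended on single libraries. Without Control 1, 2 genes were called, and without H2BE 2, 7 were called. Without Control 2 there were 153 and without H2BE 3 there were 68, while leaving out BDNF 1 or BDNF 2 gave 890 and 888. H2bc21 and ND4 were the genes that stayed called whichever of the 8 libraries was left out, so every count of called genes in a list below would hold ND4 or none without Control 1. At an unadjusted p under 0.05 there were 2445 genes, 1215 of them higher.

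Of the called genes that averaged 5 CPM or more and have a symbol that is not provisional, those with the largest rise after H2bc21 were Dyrk1b, Hivep3 and Nhsl2. Hivep3, a large zinc finger transcription factor, was at 24.8 and 28.3 CPM in Control and 49.1 and 46.0 CPM in H2BE. It rose by 0.87 on the log2 scale (SE 0.10, edgeR adjusted p 0.000907) and lost its call without Control 1. Dyrk1b, a protein kinase, was at 7.37 and 7.17 CPM in Control and 13.5 and 13.3 CPM in H2BE, a log2 fold change of 0.87 (SE 0.17). Its call was lost without any 1 of the 4 libraries. Nhsl2 was at 14.2 and 17.7 against 25.1 and 29.6 CPM, and Med12, part of the Mediator kinase module, at 17.8 and 17.6 against 31.2 and 22.8 CPM. Neither gene overlapped between the groups, which holds for every called gene. Prr36 was at 59.3 and 58.2 CPM in Control and at 96.7 and 84.2 CPM in H2BE, a log2 fold change of 0.63 (SE 0.09). Spen, a transcriptional corepressor that binds RNA, rose by 0.55, Atad2b, a bromodomain protein, by 0.60, and Igsf9b, an adhesion protein of inhibitory synapses, also by 0.55.

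Among the called genes, the largest fall was that of H2az2, which encodes the replacement histone H2A.Z.2. It was at 7.51 and 9.09 CPM in Control and 3.40 and 3.37 CPM in H2BE, and fell by 1.26 on the log2 scale (SE 0.26, edgeR adjusted p 0.0250). The BDNF libraries were at 3.60 and 2.60 CPM, also below Control, and with BDNF the H2BE virus gave a log2 fold change of 0.16 for this gene. Its call was lost without any 1 of the 4 libraries. Of the 11 replacement histone genes tested, 10 had a fold change below 0, with 4 lower at an unadjusted p under 0.05. H2az2 was the gene called by edgeR. DESeq2 gave H2az2 a log2 fold change of -1.27 and no adjusted p, so it could not call this gene. Cops9, a subunit of the COP9 signalosome, was at 89.1 and 86.0 CPM in Control and 61.5 and 60.7 CPM in H2BE, and fell by 0.52. Alkbh7, a mitochondrial AlkB homologue, fell by 0.72, Yes1, a Src family kinase, by 0.65, and Mrps12, a mitochondrial ribosomal protein, by 0.54. Dohh, which completes the hypusine residue of a translation factor, was at 77.6 and 78.8 against 53.8 and 59.1 CPM and fell by 0.47. Cdkn2d, a cyclin-dependent kinase inhibitor, was at 75.7 and 75.3 against 56.2 and 53.2 CPM and fell by 0.46.

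**Figure D1:**
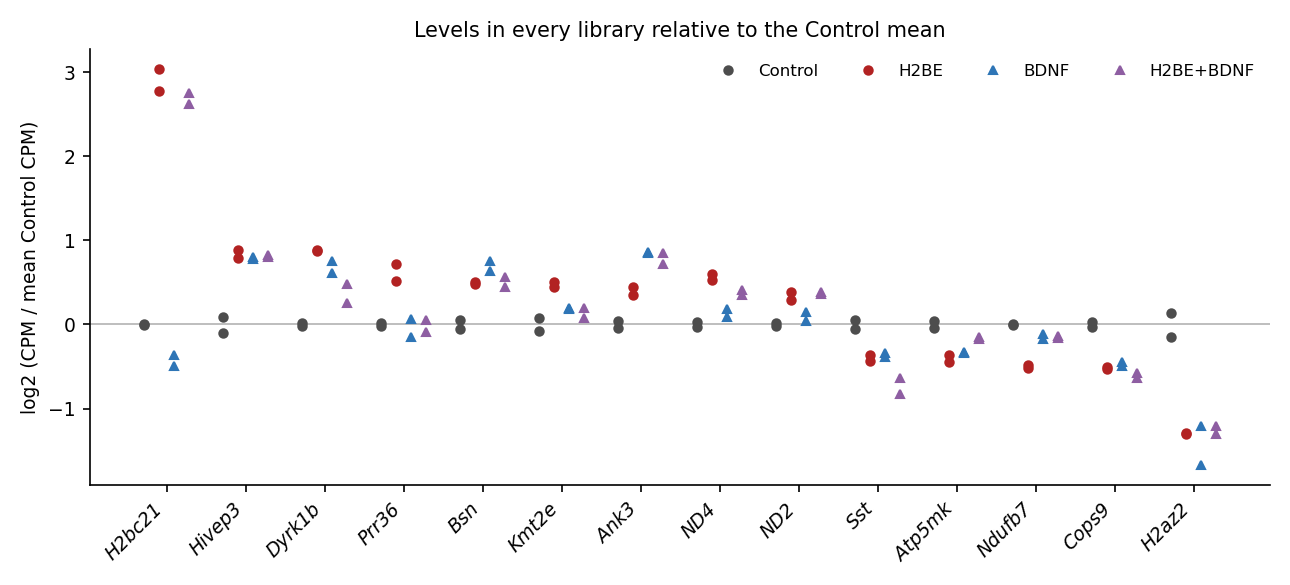
Each point is 1 library, as log2 of its CPM over the mean CPM of the 2 Control libraries, for 14 genes named in the text; circles are libraries without BDNF and triangles those with it. All 14 genes were taken from the called genes, none of which overlaps between the groups. That both H2BE libraries lie on the same side of both Control libraries was thus set by this choice. ND4, for example, is at 1488 and 1552 CPM in Control and 2200 and 2309 CPM in H2BE.

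Genes called higher had longer transcripts than genes called lower, with length taken as the longest transcript of each gene in GENCODE M21. The median length was 8295 bases for the genes called higher, 1640.5 bases for those called lower and 3483 bases for all tested genes. When the 13409 genes with a length were divided into 10 deciles by length, the median log2 fold change moved upward at each step, from -0.16 in the shortest decile (57 to 1410 bases) to 0.14 in the longest (7010 to 123179 bases). The share of genes with a fold change above 0 went from 28.9% to 81.4%. In the longest decile 116 genes were called higher and none lower by edgeR; DESeq2 called none lower either, and 23 were lower at an unadjusted p under 0.05. In the shortest decile 3 were called higher, all from the mitochondrial genome, and 43 lower. The 3 longest deciles held 155 of the 179 genes called higher (86.6%), and the 3 shortest deciles held 78 of the 108 called lower (72.2%). Genes of the longest decile also had more counts behind them, with a median of 65.7 CPM against 10.7 CPM in the shortest. The longest decile took 16.0% and 16.6% of the counts in Control 1 and 2 and 17.97% and 17.59% in H2BE 2 and 3. The median of the longest decile stayed between 0.11 and 0.17, and that of the shortest between -0.17 and -0.12, whichever of the 8 libraries was left out.

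**Figure D2:**
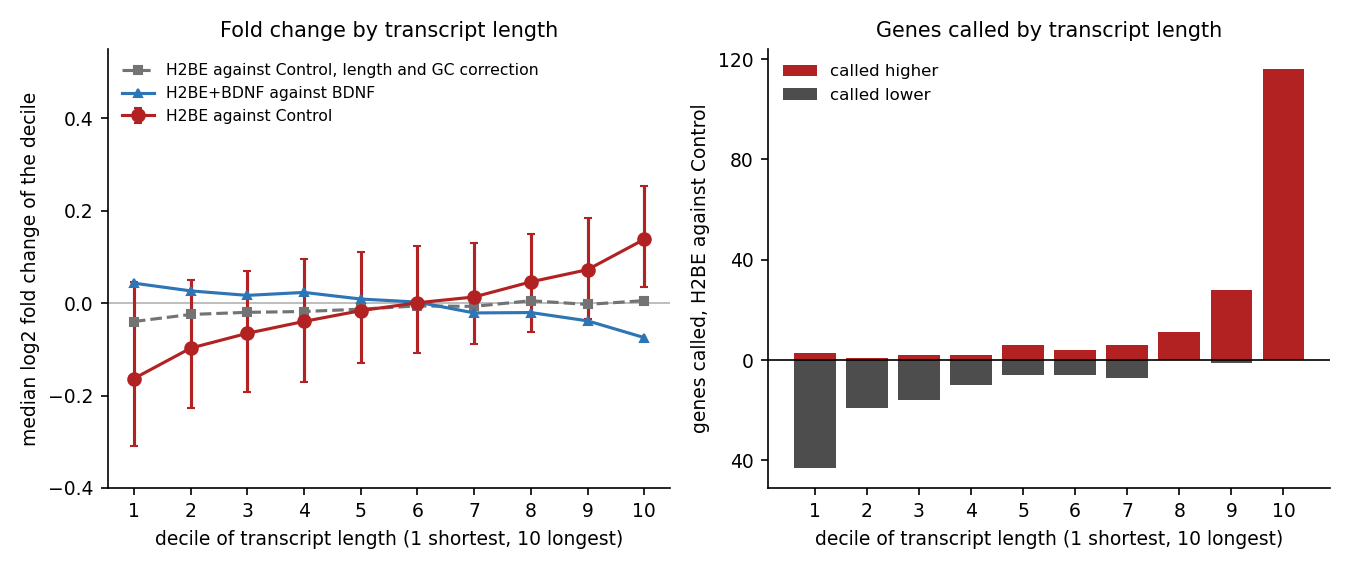
Left, median log2 fold change of the genes in each decile of transcript length, with bars from the lower to the upper quartile for H2BE against Control (red), the same after each library was corrected for length and GC content (grey), and H2BE+BDNF against BDNF (blue). Right, genes called higher (above the line) and lower (below it) in H2BE against Control: 116 of the 179 genes called higher are in the longest decile and 43 of the 108 called lower in the shortest.

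At the long end, the most abundant genes called higher included Map1b, Kif1a, Dync1h1 and Adcy1. Map1b, a microtubule-associated protein with an 11808-base transcript, was at 3244 and 3447 CPM in Control and 4148 and 3804 CPM in H2BE, and rose by 0.25. Kif1a, a kinesin that carries synaptic vesicle precursors, was at 1670 and 1814 against 2113 and 2000 CPM, and Dync1h1, the heavy chain of cytoplasmic dynein, at 1186 and 1279 against 1499 and 1373 CPM. Adcy1, an adenylyl cyclase driven by calmodulin, was at 1042 and 1117 against 1262 and 1276 CPM. Each of these genes rose by less than 1.5-fold, and they were picked from the called genes, none of which overlaps between the groups. At the short end, Tmsb4x, which binds monomeric actin, was at 1311 and 1228 CPM in Control and 1034 and 1081 CPM in H2BE, and fell by 0.26. Stmn3, a stathmin that binds tubulin, was at 950 and 902 against 792 and 802 CPM and fell by 0.22. Hint1, a small nucleotide-binding protein, was at 293 and 296 against 233 and 235 CPM and fell by 0.33.

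**Figure D3:**
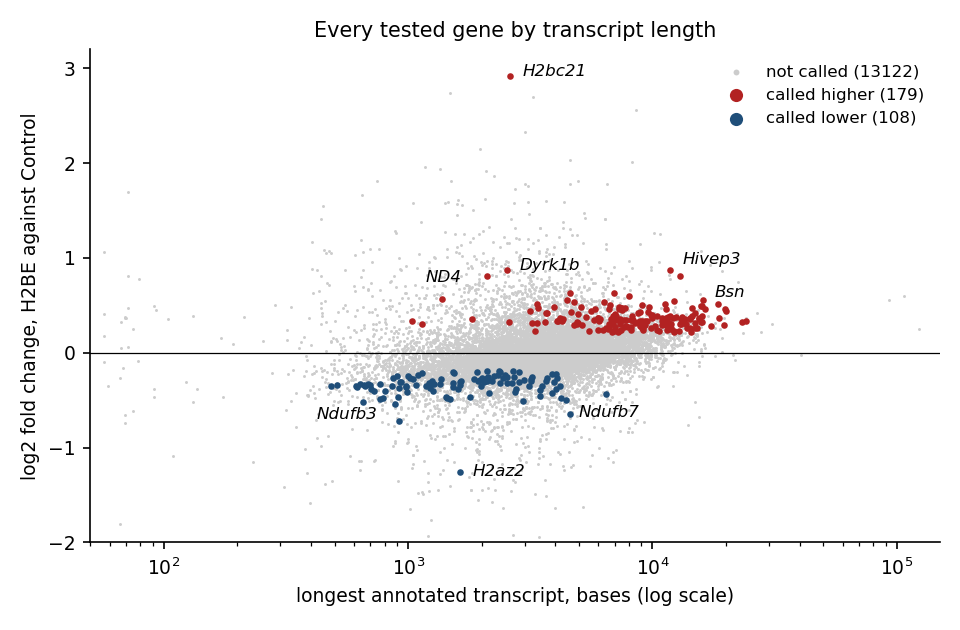
Log2 fold change of every tested gene with an annotated length (13409) against the length of its longest transcript on a log scale; 8 genes that were not called lie outside the vertical axis. The 179 genes called higher sit mostly to the right and the 108 called lower mostly to the left, with H2bc21 and ND4 among those called higher at shorter lengths.

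The trend was also measured once per library, so that genes were not taken as replicates. For each library, the deviation of log2 CPM from the mean of the 8 libraries was regressed on log2 length, which gave a slope per doubling of length. The slope was -0.0599 in Control 1 and -0.0361 in Control 2, and 0.0217 in H2BE 2 and 0.0200 in H2BE 3. The H2BE libraries were thus both above both Control libraries, with a difference of 0.0689. An exact permutation test, two-sided, gave p = 0.333, the smallest that 2 libraries against 2 can give. In the libraries with BDNF the order was the other way round, with 0.0185 and 0.0459 in BDNF 1 and 2 and -0.00203 and -0.00802 in H2BE+BDNF 2 and 3. There the H2BE virus gave a difference of -0.0372 (exact permutation p = 0.333, also the smallest possible). Averaged over both conditions the virus gave 0.0158, with an exact permutation p of 0.444 among the 36 assignments within conditions. The 2 Control libraries had the lowest slopes of the 8. Across the 13409 genes, Spearman's coefficient between length and log2 fold change was 0.33 and Pearson's r on log2 length was 0.21, as a description of the same 4 libraries.

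**Figure D4:**
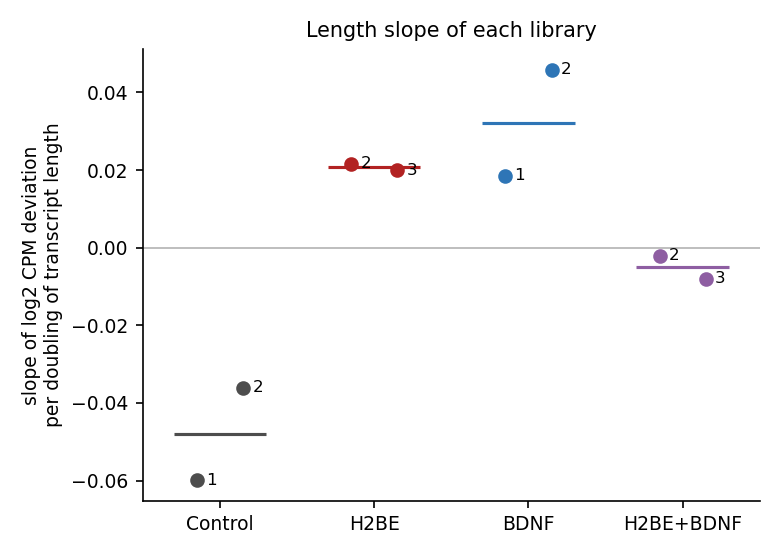
Slope of each library's log2 CPM deviation per doubling of transcript length; points are libraries with their replicate number and lines are group means. The 2 Control libraries (-0.0599 and -0.0361) lie below the other 6, and the 2 H2BE libraries (0.0217 and 0.0200) lie above the 2 H2BE+BDNF libraries.

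Transcript length and the genomic span of the gene went with the fold change to different degrees. With both in 1 regression across genes, the log2 fold change moved by 0.065 per doubling of transcript length and by 0.0043 per doubling of span. A separate regression, without span, covered 12491 coding genes. In it the log2 fold change moved by 0.074 per doubling of coding length and by 0.023 per doubling of the noncoding part of the transcript. The difference in slope between H2BE and Control was 0.0239 when span was used in place of transcript length. It was 0.0449 in the tercile of genes with the lowest CPM, 0.0884 in the middle tercile and 0.0994 in the highest.

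Each library was then corrected for a smooth trend of its log2 CPM on transcript length and on GC content, which takes out any change that follows length, whatever its source. After this correction 18 genes were called (0.134%), 15 higher and 3 lower. Among the 179 genes called higher before, 12 were called and 177 kept a fold change above 0, with a median of 0.19. All 108 called lower before kept a fold change below 0, with a median of -0.24, and 3 were called. The genes called higher after correction included the nuclear genes H2bc21, Hivep3, Prr36, Kmt2e, Zmiz1, Gabra3, Shc3 and R3hdm2, and 6 genes of the mitochondrial genome. Ndufb7, Atp5mk and Lrrc47 were the genes called lower. For Hivep3 the corrected log2 fold change was 0.65 and for Prr36 0.55. Long genes called before the correction kept less of their change: Bsn went from 0.50 to 0.21, Grin2b from 0.33 to 0.04 and Dync1h1 from 0.22 to -0.01.

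Among genes of the respiratory chain, nuclear genes that passed the test were lower and genes of the mitochondrial genome that passed it were higher; the difference between the lists was not tested. Of 94 tested nuclear genes for its subunits, 24 (25.5%) fell and none rose (0 by DESeq2 and 0 at an unadjusted p under 0.05), and 90 had a fold change below 0, with a median of -0.24 beside 0.00 for all tested genes. In the shortest length decile, which holds 58 of the 94, 3.43% of all genes were called, and 2 of the 94 were called after the correction for length and GC. Ndufb7 and Ndufb3 encode subunits of complex I. Ndufb7 was at 67.0 and 66.4 CPM in Control and 47.9 and 46.4 CPM in H2BE and fell by 0.50 (SE 0.08, edgeR adjusted p 0.00920). Ndufb3 was at 64.9 and 64.1 against 46.5 and 45.9 CPM and fell by 0.48. Cox6b1 and Cox4i1, subunits of cytochrome c oxidase, were at 261 and 231 against 193 and 193 CPM and at 377 and 343 against 293 and 283 CPM. Atp5mc3, of the ATP synthase membrane ring, was at 347 and 330 against 266 and 265 CPM, and Atp5mk, a small membrane subunit of the same enzyme, at 143 and 136 against 102 and 109 CPM. All of these were picked from the called genes, none of which overlaps between the groups. Ndufb8 fell by 0.42 and Ndufb11 by 0.47. The length used for Ndufb7 was 4435 bases, although its coding part has 411, because the longest annotated transcript was taken.

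Of the 8 tested genes of the mitochondrial genome, 4 rose and none fell by edgeR or DESeq2, nor at an unadjusted p under 0.05. ND4, a complex I subunit, was at 1488 and 1552 CPM in Control and 2200 and 2309 CPM in H2BE, and rose by 0.57 (SE 0.05, edgeR adjusted p 2.81e-05). ND2, of the same complex, was at 2209 and 2269 against 2733 and 2920 CPM and rose by 0.34. ND5 was at 2945 and 3219 against 3817 and 4087 CPM and rose by 0.36. CYTB, the complex III subunit cytochrome b, was at 5217 and 5366 against 6318 and 6734 CPM and rose by 0.30. These 4 transcripts are all under 2 kb, among lengths at which most called nuclear genes fell. ND1 and COX1 had log2 fold changes of 0.12 and 0.17 and passed the test after the correction for length and GC. ND6, at 1108 and 1037 against 1040 and 1091 CPM, overlapped between the groups, and ND3 had a log2 fold change of -0.43 (edgeR adjusted p 0.294). The mitochondrial genome took 2.93% and 3.03% of the counts in Control 1 and 2 and 3.33% and 3.54% in H2BE 2 and 3. These genes overlap or adjoin one another and have nuclear copies, and whether the counting used strand is not given in the sources used here.

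Other short housekeeping transcripts also fell. Of 80 tested cytosolic ribosomal protein genes 16 fell and none rose by edgeR or DESeq2 (1 at an unadjusted p under 0.05), with a median log2 fold change of -0.21 and 75 below 0. Rps14 was at 176 and 178 CPM in Control and 135 and 132 CPM in H2BE and fell by 0.41. Rpl41 was at 536 and 457 against 399 and 385 CPM and fell by 0.34, and Rps21 and Rps9 fell by 0.35 and 0.33. Ribosomal protein genes have many near-identical pseudogenes, so these counts are uncertain where reads could be shared. All 35 tested proteasome genes had a fold change below 0, with a median of -0.17, and 3 of them fell: Psmd13 by 0.35, Psma3 by 0.31 and Psmb1 by 0.29. Of 77 mitochondrial ribosomal protein genes, 60 were below 0 and Mrps12 was the gene that fell.

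Among genes for enzymes and partners of histone H3 lysine 4 methylation, more rose than fell. Of 20 tested, 6 rose and 1 fell, and the median log2 fold change was 0.18. The called share was 35%, beside 2.13% of all tested genes and 8.66% in the longest length decile, which holds 9 of the 20. DESeq2 called 6 higher and 0 lower. Kmt2e, an MLL family protein, was at 106 and 118 CPM in Control and 152 and 159 CPM in H2BE and rose by 0.48 (SE 0.07, edgeR adjusted p 0.00583). The methyltransferases Kmt2a, Kmt2d and Kmt2c rose by 0.46, 0.46 and 0.42. Dpy30, the small core subunit shared by these complexes, was at 40.1 and 40.7 against 26.2 and 32.5 CPM and fell by 0.47. DESeq2 gave Dpy30 no adjusted p, and the edgeR log2 fold change was -0.62 to -0.30 when 1 library was left out. Kmt2a, Kmt2c and Kmt2d have transcripts of 14967 to 19823 bases and Dpy30 one of 789 bases. Kmt2e was the list member still called after the correction for length and GC. Of 35 chromatin remodeller genes, 18 of them in the longest decile, 5 rose (14.3%). None fell by edgeR or DESeq2, with 3 lower at an unadjusted p under 0.05. Those that rose were the BAF subunits Arid1a and Arid1b by 0.34 and 0.30, Chd2 and Chd3 by 0.34 and 0.23, and Ino80 by 0.53. Of 29 genes of histone acetylation, 8 of them in the longest decile, 3 rose (10.3%). Among these were the acetyltransferase Ep300 by 0.43 and the corepressor Ncor1 by 0.27. Of 29 Mediator genes 1 rose, Med12, and the median was -0.06. None of the remodeller and acetylation genes was called after the correction for length and GC.

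The promoters of 2 long genes that rose and 2 short genes that fell are printed here, each at a single RefSeq start site. Bsn encodes Bassoon, a scaffold of the presynaptic active zone, and Hivep3 is the zinc finger factor described above. Ndufb3 encodes a complex I subunit and Uqcrh a complex III subunit, which was at 154 and 130 CPM in Control and 108.1 and 108.4 CPM in H2BE and fell by 0.41. All are RefSeq sequences on GRCm38.p6, from 250 bases before to 50 after the start, with each CG in capitals; Bsn is at chr9:108190334-108190633 on the minus strand and Hivep3 at chr4:119814428-119814727 on the plus strand. Ndufb3 is at chr1:58586147-58586446 on the plus strand and Uqcrh at chr4:116075021-116075320 on the minus strand.
Bsn: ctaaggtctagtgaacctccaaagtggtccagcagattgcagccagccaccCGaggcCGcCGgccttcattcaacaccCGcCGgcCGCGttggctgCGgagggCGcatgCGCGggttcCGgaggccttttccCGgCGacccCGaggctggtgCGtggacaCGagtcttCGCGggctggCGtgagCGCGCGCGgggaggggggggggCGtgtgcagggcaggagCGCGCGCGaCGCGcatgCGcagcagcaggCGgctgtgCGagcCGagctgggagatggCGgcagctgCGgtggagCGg
Hivep3: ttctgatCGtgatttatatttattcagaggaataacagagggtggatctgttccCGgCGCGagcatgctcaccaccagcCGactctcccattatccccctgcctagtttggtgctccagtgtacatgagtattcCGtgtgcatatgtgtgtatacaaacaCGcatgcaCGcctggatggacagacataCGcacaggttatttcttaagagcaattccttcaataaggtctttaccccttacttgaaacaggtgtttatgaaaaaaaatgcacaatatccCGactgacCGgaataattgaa
Ndufb3: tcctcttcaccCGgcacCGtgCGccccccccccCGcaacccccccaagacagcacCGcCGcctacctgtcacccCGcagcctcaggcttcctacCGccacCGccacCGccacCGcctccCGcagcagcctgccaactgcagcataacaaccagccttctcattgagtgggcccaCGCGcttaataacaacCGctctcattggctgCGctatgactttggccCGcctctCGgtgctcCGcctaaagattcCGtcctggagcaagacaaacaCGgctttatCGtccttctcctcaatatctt
Uqcrh: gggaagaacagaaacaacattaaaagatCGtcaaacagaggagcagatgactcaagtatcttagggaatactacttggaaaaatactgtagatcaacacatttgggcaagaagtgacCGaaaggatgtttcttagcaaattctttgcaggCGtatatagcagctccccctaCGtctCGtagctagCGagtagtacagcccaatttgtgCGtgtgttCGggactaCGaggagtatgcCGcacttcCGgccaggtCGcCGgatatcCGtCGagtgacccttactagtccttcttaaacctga
The printed windows of Bsn and Hivep3 hold 38 and 11 CG, and those of Ndufb3 and Uqcrh hold 22 and 15. The Hivep3 window lies inside the gene, which begins at base 119733784 in GENCODE M21, so it shows an inner start site. The CG counts of these 4 windows were therefore not read against the direction of change. Promoters were matched by symbol for 133 of the 179 genes called higher, with a median of 26 CG, and for 81 of the 108 called lower, with a median of 22, beside 21 over 10143 matched tested genes. The letters TATAAA, searched on both strands, occurred in 9.77% of the promoters of genes called higher, 7.41% of those called lower, 6.69% of those tested and 13.6% of all 32851 promoters of the table. These shares were described and not tested.

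Synaptic genes that passed the test were all higher. Of 48 tested presynaptic genes 5 rose, and of 41 postsynaptic genes 6 rose, with 36 of the 41 above 0. The called shares were 10.4% and 14.6%, beside 2.13% of all tested genes and 8.66% in the longest length decile, which holds 12 and 15 of these genes. None of either list fell by edgeR or DESeq2, with 2 presynaptic and 0 postsynaptic genes lower at an unadjusted p under 0.05. Bsn was at 271 and 290 CPM in Control and 397 and 392 CPM in H2BE and rose by 0.50 (SE 0.06, edgeR adjusted p 0.00165). Pclo, its close relative Piccolo, was at 257 and 277 against 378 and 345 CPM and rose by 0.44. Cplx2, a complexin, rose by 0.30, Unc13a, which primes vesicles, by 0.28 and Syn3, a synapsin, by 0.53. On the postsynaptic side, Shank1, a scaffold of the density, was at 216 and 222 against 313 and 264 CPM and rose by 0.40. Kalrn, an exchange factor of dendritic spines, was at 157 and 165 against 219 and 200 CPM and rose by 0.39. Grin2b, an NMDA receptor subunit with a 24060-base transcript, was at 449 and 489 against 607 and 567 CPM and rose by 0.33. Camk2a, a kinase that is also a marker of excitatory neurons, was at 186 and 179 against 237 and 216 CPM and rose by 0.31. Of 24 genes of GABA signalling, 2 of them in the longest decile, 3 rose (12.5%): the receptor subunits Gabbr2 by 0.34, Gabra3 by 0.42 and Gabrb1 by 0.31. Gabra3 was at 64.8 and 72.5 against 86.0 and 96.9 CPM, and it was called after the correction for length and GC, while none of the 48 presynaptic and 41 postsynaptic genes was.

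Among adhesion, channel and cytoskeletal genes, more rose than fell. Of 57 axon guidance and adhesion genes 11 rose and none fell by edgeR or DESeq2 (0 lower at an unadjusted p under 0.05), 54 were above 0, and the median was 0.22. The called share was 19.3%, beside 8.66% of all genes in the longest decile, which holds 26 of the 57. After the correction for length and GC none of the 57 was called, nor any of the ion channel, cytoskeleton and motor genes. Dscam, an adhesion protein of neuron self-avoidance, was at 79.2 and 80.4 against 110.2 and 103.0 CPM and rose by 0.42. Celsr3, Tenm4 and Ncam1 rose by 0.38, 0.35 and 0.25. Of 49 ion channel genes 7 rose (14.3%) and none fell by either tool (1 lower at an unadjusted p under 0.05). The longest decile, in which 81.4% of all genes were above 0, holds 26 of the 49, and 42 of the 49 were above 0. Those that rose included the calcium channel subunits Cacna1c (0.38) and Cacna1a (0.27) and the sodium channel Scn8a (0.30). Of 49 cytoskeleton and motor genes 7 rose and 3 fell, a called share of 20.4%. The longest decile holds 15 of the 49 and the shortest 6. Ank3, the ankyrin of the axon initial segment, was at 433 and 456 against 606 and 567 CPM and rose by 0.40, and Ank2 rose by 0.36. The 3 that fell, Tmsb4x, Stmn3 and Cfl1, have short transcripts and bind actin or tubulin. Of 14 neurotrophin receptor and adaptor genes, 4 of them in the longest decile, 2 rose (14.3%). Ntrk3, the receptor of neurotrophin-3, rose by 0.30 and the adaptor Shc3 by 0.44.

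Several other lists held few calls or none. No gene passed the test among 24 immediate early genes, 19 genes of feedback on ERK signalling, 32 of the ATF4 and unfolded protein responses, 26 of cholesterol synthesis, 7 of the interferon response, 18 of the p53 response and 64 protocadherins, by edgeR or DESeq2. DESeq2 gave no adjusted p for some of these genes, among them the immediate early genes Fosl1 and Atf3. At an unadjusted p under 0.05 edgeR gave 2 higher and 1 lower immediate early genes, 3 higher ERK feedback genes, 1 higher and 7 lower of the ATF4 and unfolded protein list, 3 higher and 2 lower of cholesterol synthesis, 4 lower of the p53 list, and 10 higher and 1 lower protocadherins. Egr1, an immediate early transcription factor, was at 6.88 and 12.1 CPM in Control and 15.3 and 10.9 CPM in H2BE, so the groups overlapped. Of 338 Zfp zinc finger genes 0.888% were called, under the 2.13% of all tested genes. Of these Zfp57 rose by 0.32, Zfp142 rose by 0.45 and Zfp428 fell by 0.35. Of 42 polyadenylation and splicing genes, 8 of them in the longest decile, 4.76% were called. These were Srrm2 and Prpf8, which rose by 0.34 and 0.24.

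**Figure D5:**
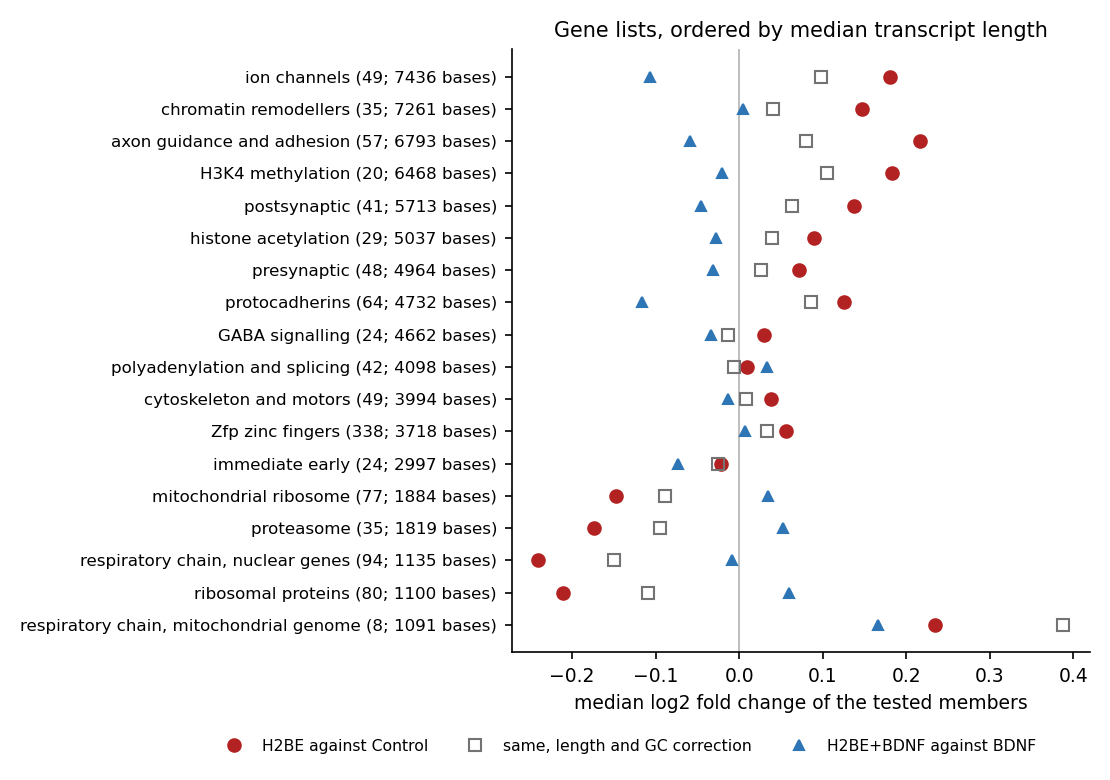
Median log2 fold change of the tested members of 18 gene lists, ordered from short (bottom) to long (top) median transcript length, for H2BE against Control (red circles), the same after correction for length and GC content (open squares) and H2BE+BDNF against BDNF (blue triangles); labels give the number tested and the median length. The nuclear respiratory genes are at -0.24 and axon guidance and adhesion genes at 0.22 in H2BE against Control, while the 8 genes of the mitochondrial genome, at the bottom, are at 0.23.

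Some markers of the cell types in the culture passed the test. The called shares were 15.8% of 19 interneuron, 5.88% of 17 excitatory and 7.69% of 13 astrocyte markers, beside 2.13% of all tested genes. Of these markers 8, 13 and 7 had a fold change above 0, with medians of -0.04, 0.15 and 0.00. Sst, the neuropeptide somatostatin of a class of interneurons, was at 656 and 606 CPM in Control and 466 and 490 CPM in H2BE, and fell by 0.40 (SE 0.06, edgeR adjusted p 0.00828). Its transcript, of 721 bases, is in the shortest decile. The interneuron markers Reln and Adarb2, with long transcripts, rose by 0.26 and 0.51, so the list of 19 had 2 higher and 1 lower. Npy, another interneuron neuropeptide, was at 93.0 and 65.9 against 52.1 and 64.1 CPM, with an edgeR adjusted p of 0.0576. Gad1, the GABA-synthesising enzyme of all interneurons, was at 769 and 759 against 688 and 712 CPM (adjusted p 0.200). Of 17 excitatory markers Camk2a rose, and of 13 astrocyte markers Slc1a2, a glutamate transporter, rose by 0.32. Of the 7 microglial markers that could be tested, all were below 0, with 3 at an unadjusted p under 0.05 and none called by edgeR or DESeq2. The 15 microglial genes summed to 28.7 and 26.7 CPM in Control and 19.9 and 17.2 CPM in H2BE, Tmem119 was at 0 in all 4 libraries, and their part in the other results was not tested. No marker of oligodendrocyte lineage, endothelial or mural cells, fibroblasts or progenitors was called by either tool, with 1, 0, 0 and 1 higher and 1, 0, 0 and 2 lower at an unadjusted p under 0.05.

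The same virus was also compared with its control in neurons that had received BDNF, in 4 other libraries. There 3 genes were called (0.0223%): H2bc21, with a log2 fold change of 3.11, Cort, a neuropeptide related to somatostatin, and Cntn6, a contactin. Of the 179 genes called higher without BDNF, 50 had a fold change above 0 with BDNF, with a median of -0.06. The share was 27.9%, beside 48.4% of all tested genes and 27.4% of all genes in the longest decile, which holds 116 of the 179. Of the 108 called lower without BDNF, 45 were below 0 with BDNF (41.7%), beside 51.6% of all tested genes. Of all genes in the shortest decile, which holds 43 of the 108, 59.5% were above 0 with BDNF. In the shortest decile of length the median was 0.04 and in the longest -0.07. The difference of the virus effect with and without BDNF was tested by an interaction term, and 155 genes were called (1.15%), of which 111 had a lower and 44 a higher fold change with BDNF. Part of this difference is the change without BDNF that picked the 179 and 108 genes, so an overlap with them was favoured in advance. The 155 genes included 80 of the 179 genes called higher and 21 of the 108 called lower without BDNF. The edgeR count was 0 without Control 1 or H2BE 2 (1420 and 1494 genes at an unadjusted p under 0.05), 74 without Control 2, 55 without H2BE 3, 32 without H2BE+BDNF 2 and 1 without H2BE+BDNF 3, and was 897 without BDNF 1 and 241 without BDNF 2. Hivep3 shows the levels behind such a call: 26.6 CPM on average in Control, 47.6 in H2BE, 46.1 in BDNF and 46.9 in H2BE+BDNF. Control was the group apart from the other 3 for this gene. For Sst the virus gave -0.40 without and -0.36 with BDNF, and for ND2 0.34 and 0.28, and neither difference passed the test (adjusted p 0.875 and 0.716 by edgeR).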

How the data were processed

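PolyA RNA from the neuron cultures was made into libraries with the NEBNext Ultra II kit, per the labels' protocols. The authors deposited a table of raw counts per Ensembl gene, which was used for every value here, and a table of counts divided by a size factor for each library, a normalized signal that gave no value here. The submitters' processing notes name mm10, SAMtools, DESeq2 and deepTools; the aligner, the counter, their annotation and the use of strand are not given in the sources used. All columns were matched to samples by title, and 0 columns of per-sample values lacked a sample.

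Genes with enough counts (edgeR filterByExpr, minimum count 10, minimum total 15) were tested over the 8 distinct libraries with 4 group means, TMM scaling and edgeR 4.0.16 quasi-likelihood tests in R 4.3.3, with Benjamini-Hochberg adjustment over the 13452 genes tested and a threshold of 0.05. CPM are per 1000000 counts of the TMM-scaled library size, except that sums over marker genes use the total count. Log2 CPM used a prior count of 2. Length, GC content and position came from GENCODE M21 (GRCm38), which holds 48144 of the table's genes; promoters came from RefSeq (GRCm38.p6). The correction for length and GC subtracted, in each library, a lowess curve (span 0.3) of the deviation of log2 CPM and entered the model as an offset. The fits were tested on simulated counts. DESeq2 1.42.0 was an alternative, as were other scalings, filters, thinned counts, a replicate block, other length measures and each library left out. The members and lists were chosen with earlier results of these data known.

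Named genes were H2bc21; in each direction, up to 15 called genes of the largest change whose groups did not overlap and whose average reached 5 CPM; up to 10 of the smallest p a direction; up to 4 of the smallest p in each of 37 lists; and up to 5 of the most abundant called genes a direction in the shortest and longest decile of length. Called genes of short lists (Cfl1), genes called after the correction or with BDNF, and H2bc4, H2bc6, H2bc27, Uqcrh, ND3, ND6 and Gad1 were named after their values were seen. Some called genes are not reported here.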

Additional observations from a re-analysis of the deposited data

Results flagged for a closer look

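The effect of the H2BE virus differed between neurons with and without BDNF for 155 genes by the interaction test of edgeR, and the values below are the log2 fold change with BDNF minus that without, for genes named in the report. Because the change without BDNF is subtracted, genes picked for a rise lean below 0 and those picked for a fall above 0. Among genes of chromatin, transcription and splicing the difference was -0.85 for Hivep3, -0.53 for Kmt2c, -0.53 for Kmt2e, -0.39 for Arid1b, -0.43 for Chd2, -0.61 for Ep300, -0.59 for Spen, -0.43 for Zmiz1, -0.63 for Zfp142 and -0.37 for Srrm2. Among genes of synapses, channels and adhesion the difference was -0.69 for Bsn, -0.60 for Pclo, -0.37 for Unc13a, -0.56 for Shank1, -0.51 for Kalrn, -0.49 for Grin2b, -0.49 for Gabbr2, -0.45 for Cacna1a, -0.48 for Tenm4 and -0.77 for Igsf9b. Among genes of signalling and the cytoskeleton the difference was -1.18 for Dyrk1b, -0.65 for Shc3, -0.36 for Adcy1, -0.50 for Ank2, -0.47 for Ank3, -0.31 for Kif1a, -0.39 for Dync1h1 and -0.93 for Nhsl2. It was also below 0 for other genes that were higher without BDNF, with -0.60 for Prr36, -0.34 for R3hdm2, -0.38 for Reln, -0.84 for Adarb2 and -0.33 for ND4. The named genes that fell without BDNF and were called for the difference had values above 0. Among respiratory chain genes these were 0.49 for Ndufb7, 0.53 for Ndufb11, 0.59 for Atp5mk, 0.53 for Uqcrh and 0.46 for Cox6b1, and among ribosomal and proteasome genes 0.55 for Rps14, 0.42 for Rps21, 0.41 for Rps9 and 0.46 for Psmd13. The others were 0.80 for Dpy30, 0.42 for Hint1, 0.32 for Tmsb4x and 0.30 for Cfl1. Cntn6, which was called with BDNF and not without, had a difference of 0.58.

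The length slope also differed in sign between the 2 conditions. The difference of the virus effect on the slope, with BDNF minus without, was -0.106, and an exact permutation test of the virus label within conditions, two-sided, gave p = 0.0556, the smallest that the design allows. Both Control libraries lay below both H2BE libraries, while both BDNF libraries lay above both H2BE+BDNF libraries. The cause of the difference was not tested.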

How the results depend on the processing

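The count of 287 genes called (179 higher, 108 lower) varied with the setting. It was 1130 (647 and 483) in a fit of the 4 libraries alone, 559 (345 and 214) with no filter on low counts, and 1611 (829 and 782) with all 10 libraries taken as replicates. It was 18 (15 and 3) after the correction for length and GC. With all libraries thinned to the smallest, 64 were lower. Leaving out 1 library gave 2 to 890 genes, 2 to 506 higher and 0 to 388 lower; the 0 lower came without Control 1 and without H2BE 2, with 611 and 637 lower at an unadjusted p under 0.05 by edgeR. The label numbers do not say that samples were paired. Deviations of Control 2 and 3 (the latter part of Control 1) correlated at -0.26 with those of H2BE 2 and 3 over 10716 genes. The replicate block gave 140 genes (112 and 28), and pairing Control 1 with H2BE 2 and Control 2 with H2BE 3 in the 4 libraries, added after seeing the data, gave 2058 (1071 and 987). For the difference with BDNF, 155 genes became 89 with thinned counts, 5 after the correction and 245 with the replicate block, and 0 to 897 when 1 library was left out.

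The difference in length slope, 0.0689, stayed above 0 with other measures of length (0.0564 for the union of exons, 0.0457 for the median transcript, 0.0239 for genomic span). It was 0.0902 in protein-coding genes, 0.0890 at a mean of at least 5 CPM and 0.0449, 0.0884 and 0.0994 in terciles of CPM, and 0.0570 to 0.0807 when 1 library was left out. After the correction it was -0.00188 and Dync1h1 was at -0.0142, as the correction takes out the trend itself. Within numbers 2 and 3 as a replicate block, which takes in Control 3 although it holds part of Control 1, it was 0.0770. DESeq2, upper-quartile scaling, DESeq2 size factors and a minimum count of 30 kept the calls within 1.5 times. The depth of 5058074 counts in H2BE 3 limits genes near 3 counts.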
